A study of Mus musculus with 8 samples.

Results

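The translation factors described here are the genes that carry ribosomes through initiation, elongation and termination, as measured in sorted mouse B cells. They were taken by symbol, as probe sets annotated to a single gene named Eif1 to Eif6, Eef1 or Eef2 with any ending, and the release factor genes Etf1 and Gspt1. This gave 72 of 12488 probe sets and 51 genes, and the probe set with the highest mean over the 8 arrays stood for its gene. Of the 51 genes 45 passed the filter on low signal and were tested among 7253 probe sets. Eif2s1, the regulated subunit of eIF2, is not analysed here.

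RNA was measured on 8 Affymetrix arrays, 2 for each of 4 groups, from B cells of F1 mice of the QM and B6 strains, and each array held cells pooled from 4 to 10 mice. QM mice carry a rearranged heavy chain gene that makes most of their B cells bind the hapten NP, so all groups share this receptor background, and the age of the mice is not given in the sources used here. Resting B cells (sorted GL7- B220+) came from unimmunised mice. Germinal centre B cells (sorted GL7+ B220+) came from 3 responses. The T-independent group (TI day 4) was given 30 µg of NP-Ficoll and sorted on day 4. For the carrier-primed T-dependent group (TD day 4), mice first received 50 µg of chicken gamma-globulin (CGG) in alum together with heat-killed B. pertussis. Soluble NP-CGG, 50 µg, followed after 5 weeks, and cells were sorted on day 4 of that challenge. The unprimed T-dependent group (TD day 10) was given 50 µg of NP-chicken gamma-globulin in alum, also with heat-killed B. pertussis, and sorted on day 10. Signals are the deposited intensities, and a signal under the floor of 81 units was set to 81 before log2 was taken.

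In eukaryotic translation the initiator tRNA is brought to the small ribosomal subunit by eIF2, the mRNA cap is bound by the eIF4 factors, and eIF3 holds the assembly together while it scans for the start codon. Elongation factor eEF1A then delivers each aminoacyl-tRNA, eEF2 moves the ribosome on, and eRF1 (Etf1) with eRF3 (Gspt1) ends the chain at a stop codon. Resting B cells make little protein, and activated B cells enlarge and raise protein synthesis before they divide or become secretory cells. A change of mRNA is only 1 of the ways in which these factors are controlled, since phosphorylation of eIF2, of the eIF4E-binding proteins and of eEF2 sets much of the rate and is not measured by an array.

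Markers of the sorted cells and of other cells were checked first. Of 3 tested germinal centre genes 3 were higher than resting in the mean of the germinal centre groups and in each TD group. In TI day 4 against resting 2 of them, Bcl6 and Mki67, were higher. Gcsam read 156 and 131 in TI day 4 beside 154 and 101 in resting, and was called lower in TI day 4 than in both TD groups. The summed signal of the germinal centre list was 573 to 615 in resting, 2406 to 2699 in TD day 4, 2438 to 2915 in TD day 10, with 1328 to 1352 in TI day 4. B cell markers summed to between 27521 and 31482 in resting and between 19825 and 23624 in the germinal centre arrays (3 of 6 lower on average). Red cell markers summed to 22662 to 25147 in resting and to between 713 and 2866 in the germinal centre arrays (3 of 4 tested genes lower on average). The fourth, Slc4a1, read 724 and 707 in resting, between 221 and 419 in the TD arrays and 1700 and 2317 in TI day 4, where it was called higher than in resting and in both TD groups. Neutrophil markers summed to 6282 to 6548 in resting and to between 1600 and 2690 in the germinal centre arrays (3 of 6 lower on average). Macrophage markers summed to 3132 to 3444 in resting, to between 1727 and 2824 in the TD arrays and to 5584 to 6309 in TI day 4. Of 7 tested, 0 were called between TI and TD day 4, 1 (Apoe) was higher in TI than in TD day 10, and in TI against resting Apoe was higher and C1qa and C1qc lower, with C1qc at or below 0 in all 3 germinal centre groups and Alas2, a red cell gene, in TD day 4 and TI day 4. Plasma cell markers summed to 1919 to 1965 in resting, to between 2581 and 3932 in the TD arrays and to 9726 to 12923 in TI day 4. Most of the TI sum was Jchain, at 7347 and 9356. Of 3 tested plasma cell genes, Jchain was called higher in TI day 4 than in resting and both TD groups. Xbp1 was called higher in TI day 4 than in resting and TD day 10. T cell markers summed to between 427 and 834, with Cd3e and Cd8a at or below 0 in every group. The Gapdh ratio of 3' over 5' signal, a sign of RNA quality, was 0.867 and 1.59 in resting, 0.981 and 0.954 in TD day 4, 0.836 and 0.896 in TD day 10, and 1.24 and 1.68 in TI day 4. Apart from fits with the Gapdh ratio as a covariate, the part of these differences in the results that follow was not tested. In pooled cells fewer cells of a type and less RNA per cell cannot be told apart.

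Most translation factor genes, like most tested probe sets, lay within a log2 difference of 0.5 from resting in each of the 3 germinal centre populations. The few genes that passed the test against resting with all 8 arrays were higher. With the 3 germinal centre groups averaged and set against resting, 4 of 45 tested genes were higher (limma, adjusted p under 0.05), against 7.73% of all tested probe sets. None of the 45 was lower, against 5.5% of all tested probe sets, and without resting replicate 1 there was 1 lower call, Eif4ebp1 (adjusted p = 0.047). The 4 were Eif1ax, Eif2ak3, Eef1a2 and Eif4e2. The 4 of 45 come to 8.89%, higher and lower calls together, and the share of all tested probe sets in either direction is larger. At an unadjusted p under 0.05 there were 11 of the 45, or 24.4%, beside 25.8% of all tested probe sets. The median log2 difference was 0.10 over the tested translation factors and 0.0041 over all tested probe sets. The difference was under 0.5 in size for 37 of 45 genes, or 82.2%, and for 69.7% of all tested probe sets. Against resting in each group alone, it was under 0.5 for 75.6% of the genes in TD day 4 (66% of all tested probe sets). The share was 68.9% in TD day 10 (63.4%) and 75.6% in TI day 4 (65.4%). All 6 germinal centre arrays lay above both resting arrays for 9 of 45 genes (20%, with 12.7% of all tested probe sets), and below them for 2 (4.44%, with 12.1%).

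**Figure D1:**
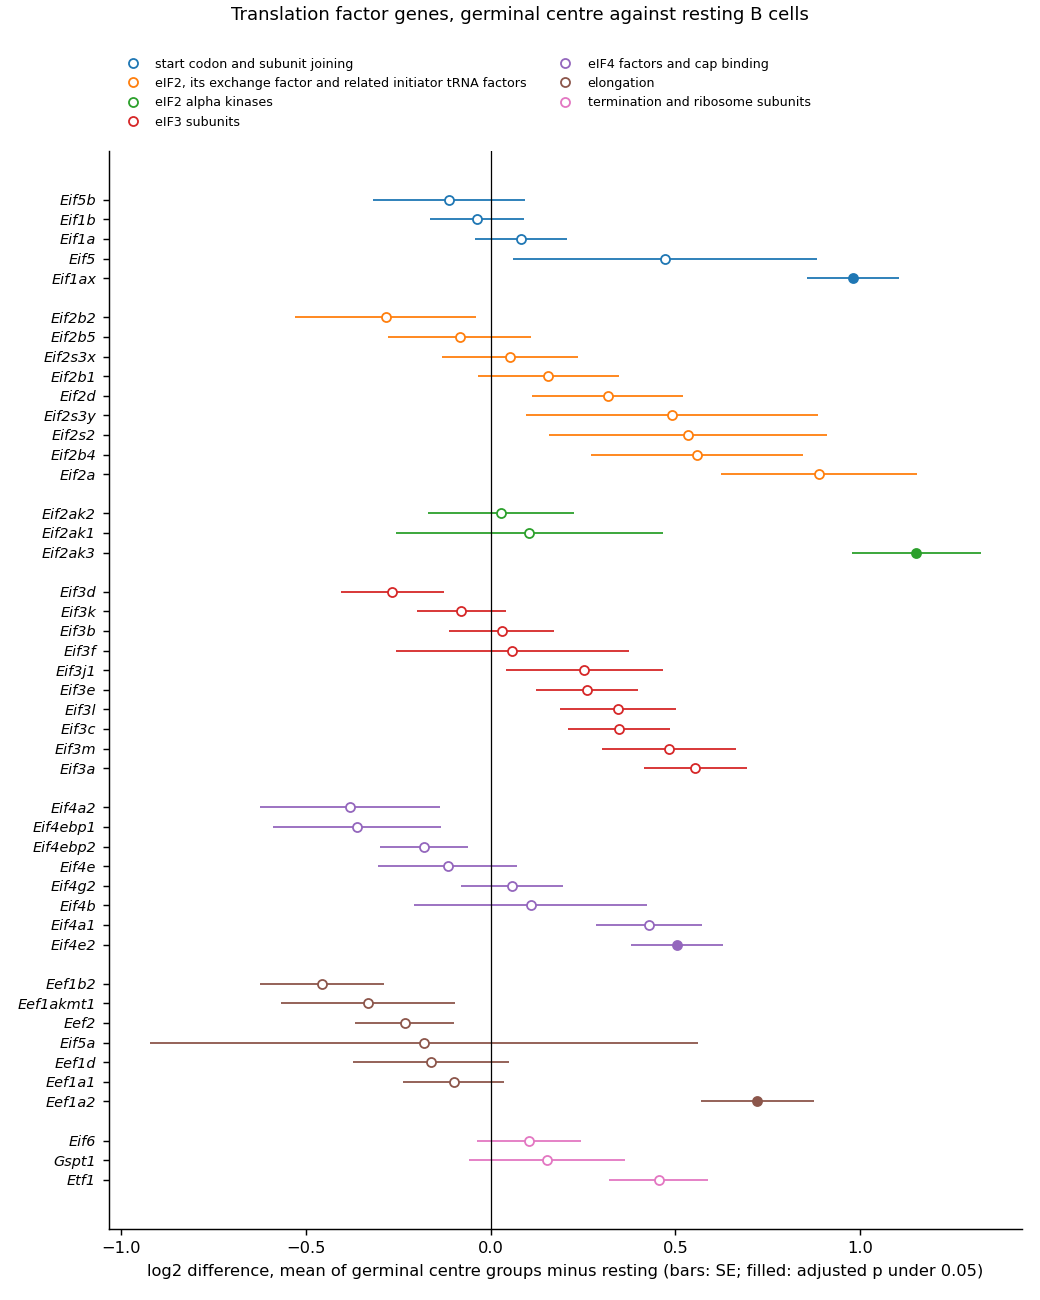
Log2 difference of the 45 tested translation factor genes between the mean of the germinal centre groups and resting B cells (x axis, log2 units), by role, with bars for the SE from limma on 8 arrays and filled points for adjusted p under 0.05. The 4 filled points, Eif1ax, Eif2ak3, Eef1a2 and Eif4e2, lie to the right, and elongation genes other than Eef1a2 lie left of 0 without a call.

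Among the factors of start codon recognition, Eif1ax rose and its relatives did not pass. Eif1ax, the X-linked gene of eIF1A, which helps the small subunit scan and accept the initiator tRNA, read 304 and 274 in resting, 625 and 577 in TD day 4, 671 and 673 in TD day 10, and 479 and 440 in TI day 4. Every germinal centre array was above both resting arrays, and the TI arrays lay between resting and the TD arrays. The rise over resting was 1.98-fold on average (adjusted p = 0.0052), 2.08-fold in TD day 4 (adjusted p = 0.012), 2.33-fold in TD day 10 (adjusted p = 0.0064) and 1.59-fold in TI day 4 (adjusted p = 0.047). The average rise kept its call without any 1 of the 8 arrays (adjusted p between 0.016 and 0.031), while the TI rise lost it without any 1 of them (adjusted p between 0.075 and 0.19). When TD day 4 replicate 1 or 2 was left out, the TD day 4 rise had adjusted p = 0.083 and 0.062. The autosomal copy Eif1a was dim, between 52 and 104, and Eif1b, a relative of eIF1, stayed between 663 and 776 in all 8 arrays, a log2 difference of -0.0375 ± 0.13 (SE). Eif5, the GTPase activator of eIF2, ran from 148 to 446 with overlap between all groups, and Eif5b, which helps join the ribosomal subunits, was above the floor on 2 arrays.

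Of the 4 kinases that phosphorylate eIF2 and so slow initiation, 1 rose in all 3 germinal centre groups. Eif2ak3 (PERK), the sensor of unfolded protein in the endoplasmic reticulum, read 87 and 129 in resting, 257 and 255 in TD day 4, 226 and 240 in TD day 10, and 218 and 220 in TI day 4. The resting arrays were low and the 6 germinal centre arrays close together. The rise was 2.22-fold on average (adjusted p = 0.0097), 2.42-fold in TD day 4 (adjusted p = 0.018), 2.20-fold in TD day 10 (adjusted p = 0.024) and 2.07-fold in TI day 4 (adjusted p = 0.033). Its size depends on the floor, as the average log2 difference of 1.15 was 0.72 with the floor at the 60th percentile (adjusted p = 0.0047). The average rise passed without any 1 array (adjusted p between 0.011 and 0.032). The TI rise passed without resting replicate 2 and in no other of these 8 fits (adjusted p between 0.016 and 0.14). When TD day 4 replicate 1 or 2 was left out, the TD day 4 rise had adjusted p = 0.10 and 0.098. The TD day 10 rise had 0.10 and 0.12 when TD day 10 replicate 1 or 2 was left out, and 0.054 without either TD day 4 array. Between TI day 4 and TD day 4 its difference did not pass.

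The other kinases did not pass against resting. Eif2ak1 (HRI), the haem-regulated kinase known from red cell precursors, read 126 and 174 in resting, 39 and 137 in TD day 4, 176 and 12 in TD day 10, and 365 and 282 in TI day 4. Both TI arrays were above all others, with a log2 difference of at least 1.61 ± 0.44 (SE) from TD day 4 that did not pass (adjusted p = 0.17). Red cell markers summed to 2318 to 2866 in TI day 4, 713 to 1038 in TD day 4 and 867 to 1277 in TD day 10, beside 22662 to 25147 in resting. Of these markers Slc4a1, the anion exchanger of red cells, read 1700 and 2317 in TI day 4 and was called higher there than in each other group compared with it. The other red cell markers had no such call. Hba-a1 read 508 and 490 in TI day 4 and between 285 and 696 in the TD arrays. Hbb-b2 read 110 and 59 in TI day 4 and between 65 and 329 in the TD arrays, and Alas2 was below 0 in TI day 4. The part of red cell RNA in the Eif2ak1 signal was not tested. Eif2ak2 (PKR), which senses double-stranded RNA, read 116 and 97 in resting, 120 and 76 in TD day 4, 127 and 140 in TD day 10, and 87 and 106 in TI day 4, a log2 difference of 0.027 ± 0.20 (SE, adjusted p = 0.95) whose sign turned with the scaling of the arrays. Eif2ak4 (GCN2), which senses a lack of amino acids, was under the floor on all 8 arrays, at 1 to 49 units.

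**Figure D2:**
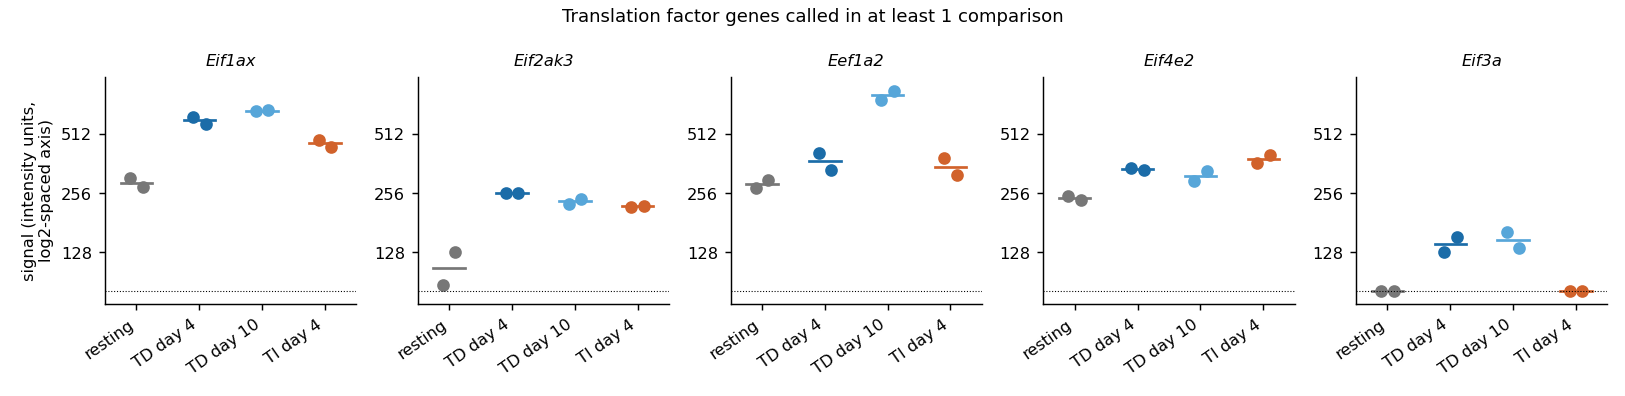
Signal (intensity units, log2-spaced axis) of the 5 translation factor genes called in at least 1 comparison, with 1 point per array, bars at the mean of the log2 values of 2 arrays and the floor of 81 as a dotted line. Eif1ax and Eif2ak3 are above resting in all germinal centre groups, Eef1a2 stands out in TD day 10, and Eif3a is above the floor in the TD groups alone.

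Genes of eIF2 and of eIF2B, the exchange factor that recharges it, showed no call among 9 tested. Eif2s3x, the X-linked gene of the eIF2 gamma subunit, stayed between 791 and 1322 (log2 difference 0.052 ± 0.18, SE). Eif2s2, the beta subunit, was dim, between 31 and 206. The Y-linked copy of Eif2s3x, Eif2s3y, read between 48 and 239, on a probe set whose type Affymetrix marks as shared by a gene family, so signal from the X copy cannot be told apart. Eif2a, a separate initiation factor that can carry the initiator tRNA, read 226 and 165 in resting and between 233 and 443 in the germinal centre arrays. Its 6 germinal centre arrays were all above both resting arrays, and its rise of 1.85-fold did not pass (adjusted p = 0.085). The eIF2B genes Eif2b1, Eif2b2, Eif2b4 and Eif2b5 had log2 differences between -0.28 and 0.56, and their germinal centre arrays as a whole overlapped with resting. Eif2d, a factor of reinitiation and recycling, was above the floor on both TI arrays, at 121 and 202, and on no other, between -93 and 29. It passed the filter through TI day 4 alone and so had to differ there; its log2 difference between TI and TD day 4 of at least 0.95 ± 0.25 (SE, adjusted p = 0.16) did not pass and is given as a value.

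Of the 10 subunits of eIF3, the scaffold of initiation, 10 were tested, 8 had a positive difference in the mean of the germinal centre groups and none passed there. The median was 0.26, and the range ran from -0.27 for Eif3d to 0.55 for Eif3a. Eif3a, the largest subunit, read 56 and 58 in resting, 129 and 153 in TD day 4, 162 and 135 in TD day 10, and 59 and 52 in TI day 4. The 4 TD arrays were above the floor and the 4 resting and TI arrays under it, so the gene passed the filter through the TD groups alone. Its rise over resting was at least 1.73-fold in TD day 4 (adjusted p = 0.041) and at least 1.83-fold in TD day 10 (adjusted p = 0.027). Having passed the filter only where it was high, Eif3a had to differ, so its calls are given as values only. Both calls were lost without any 1 of the 8 arrays (adjusted p between 0.062 and 0.19, and between 0.050 and 0.14). With the floor at the 60th percentile the log2 differences were 0.049 and 0.090 (adjusted p = 0.88 and 0.72). Between TI and TD day 4 the log2 difference of at most -0.79 ± 0.17 (SE) did not pass (adjusted p = 0.096), nor did that between TI and TD day 10 of at most -0.87 ± 0.17 (SE, adjusted p = 0.066).

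The other eIF3 subunits had no call in any comparison. Eif3k stayed between 2320 and 2653 on all arrays and Eif3b between 556 and 716. Eif3c read 1653 and 1422 in resting and between 1810 and 2212 in the germinal centre arrays, a difference of 1.27-fold that did not pass (adjusted p = 0.18). Eif3e, Eif3l and Eif3c each had all 6 germinal centre arrays above both resting arrays, by 1.20-fold, 1.27-fold and 1.27-fold. Eif3f ran from 287 to 637 and Eif3j1 from 131 to 247. For both, the germinal centre arrays as a whole overlapped with resting. Eif3m had a log2 difference of 0.48 ± 0.18 (SE, adjusted p = 0.16).

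In the eIF4 group, which binds the cap and unwinds the leader of the mRNA, 8 of 11 genes were tested and 1 was called. Eif4e2, a cap-binding relative of eIF4E that is known to repress translation, read 247 and 237 in resting, 344 and 336 in TD day 4, 296 and 332 in TD day 10, and 362 and 398 in TI day 4. All germinal centre arrays were above resting, by 1.42-fold (adjusted p = 0.048), and in TI day 4 alone by 1.57-fold without passing (adjusted p = 0.052). The call was lost without any 1 of the 8 arrays (adjusted p between 0.079 and 0.15), and a second probe set of the gene, of the family type, ran from -216 to 416 with a fitted log2 difference of -0.37 ± 0.58 (SE). The 2 helicase genes did not pass in either direction. Eif4a1 read 761 and 699 in resting, 1046 and 1110 in TD day 4, 1135 and 1121 in TD day 10, and 691 and 878 in TI day 4, so that the 4 TD arrays were above both resting arrays, as was 1 of the 2 TI arrays. Its log2 difference from resting was 0.56 ± 0.17 (SE, adjusted p = 0.11) in TD day 4, 0.63 ± 0.17 (SE, adjusted p = 0.079) in TD day 10 and 0.095 ± 0.17 (SE, adjusted p = 0.82) in TI day 4. Eif4a2 read 800 and 798 in resting, 570 and 966 in TD day 4, 690 and 604 in TD day 10, and 575 and 404 in TI day 4, a log2 difference of -0.38 ± 0.24 (SE, adjusted p = 0.41).

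Eif4b, which stimulates the helicase, read 726 and 337 in resting, 661 and 691 in TD day 4, 790 and 813 in TD day 10, and 347 and 226 in TI day 4. The TI arrays were below all TD arrays, while the 2 resting arrays disagreed with each other. The log2 difference of TI was -1.27 ± 0.39 (SE, adjusted p = 0.21) from TD day 4 and -1.52 ± 0.39 (SE, adjusted p = 0.12) from TD day 10. With the Gapdh ratio as a covariate the latter was -0.57 (adjusted p = 0.45). A second tested probe set of Eif4b stayed between 172 and 261, with a log2 difference of -0.25 ± 0.22 (SE) between TI and TD day 4. Eif4e, the cap-binding protein itself, read 68 and 107 in resting, 56 and 45 in TD day 4, 42 and 31 in TD day 10, and 115 and 40 in TI day 4 (adjusted p = 0.76). It was above the floor on 2 of the 8 arrays, so its fitted log2 difference of -0.12 ± 0.19 (SE) depends on the floor and was -0.74 with the floor at the 40th percentile. Of its inhibitors, Eif4ebp1 read 79 and 143 in resting, 74 and 91 in TD day 4, 8 and 88 in TD day 10, and -36 and 14 in TI day 4 (adjusted p = 0.40), above the floor on 3 arrays. Its fitted log2 difference was -0.36 ± 0.23 (SE), -0.95 with the floor at the 40th percentile (adjusted p = 0.22), and -0.77 without resting replicate 1 (adjusted p = 0.047). Eif4ebp2 read 1698 and 1709 in resting and between 1391 and 1635 in the germinal centre arrays. All 6 of the latter were below resting, by 1.13-fold (adjusted p = 0.42), while at a second probe set of Eif4ebp2 the difference had the other sign, 0.35 ± 0.34 (SE, adjusted p = 0.59). Eif4g2, a scaffold without a site for eIF4E, stayed between 147 and 206. Eif4g3, Eif4h and Eif4enif1 did not pass the filter, with at most 1 array above the floor.

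**Figure D3:**
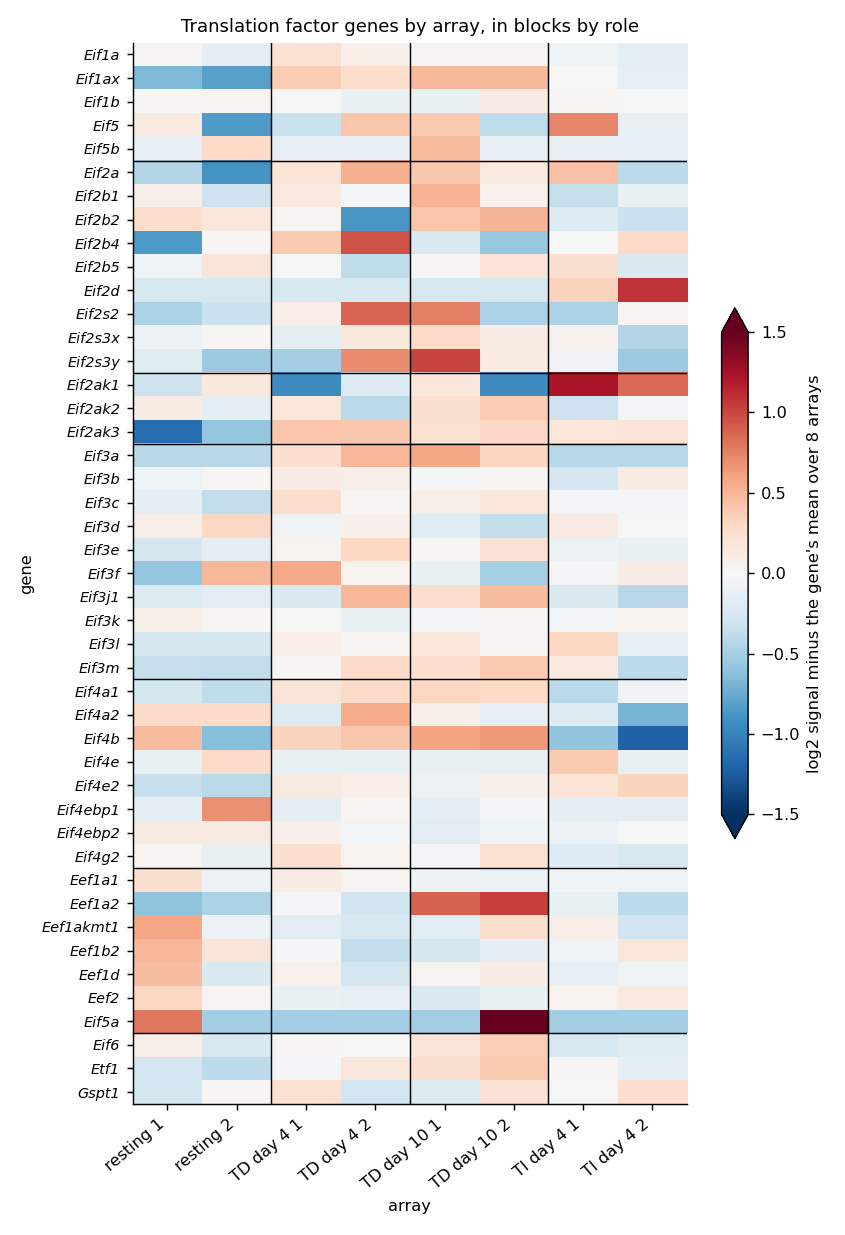
Log2 signal of the 45 tested translation factor genes minus each gene's mean over the 8 arrays (colour, log2 units, values beyond 1.5 in size shown at the end colours), with arrays in columns and genes in blocks by role. Eif1ax and Eif2ak3 are low in both resting arrays, Eef1a2 is high in both TD day 10 arrays, Eif2ak1 and Eif2d are high in both TI arrays, and Eif5a is high in single arrays.

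Among the elongation factors, the isoform Eef1a2 was high in 1 response and the main factors stayed near resting. Eef1a2, the form of eEF1A known from muscle and neurons, read 272 and 299 in resting, 408 and 337 in TD day 4, 764 and 845 in TD day 10, and 385 and 316 in TI day 4. Both TD day 10 arrays were above the other 6. The rise over resting was 2.82-fold in TD day 10 (adjusted p = 0.0064), and the log2 differences were 0.38 ± 0.19 (SE, adjusted p = 0.32) in TD day 4 and 0.29 ± 0.19 (SE, adjusted p = 0.44) in TI day 4. The call against resting was lost without TD day 10 replicate 2 (adjusted p = 0.051) and kept without each of the other 7 arrays. TI was 2.30-fold below TD day 10 (adjusted p = 0.033), a call kept without either resting array and lost without any other (adjusted p between 0.064 and 0.18). The log2 difference between TD day 10 and TD day 4, 1.12 ± 0.19 (SE), had an unadjusted p of 0.00088 and did not pass (adjusted p = 0.34). In the mean of the germinal centre groups the rise was 1.65-fold (adjusted p = 0.03). That call passed without TI day 4 replicate 2 alone of the 8 arrays (adjusted p between 0.044 and 0.12).

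Eef1a1, the general form of eEF1A, read 21853 and 17495 in resting, 20021 and 19027 in TD day 4, 17637 and 17447 in TD day 10, and 17723 and 17717 in TI day 4. All groups overlapped with resting, and the log2 difference of the germinal centre mean, -0.10 ± 0.14 (SE), had a 95% interval from -0.43 to 0.23. Eef2 read 9070 and 7491 in resting, 6827 and 6708 in TD day 4, 6269 and 6761 in TD day 10, and 7569 and 8103 in TI day 4, a log2 difference of -0.23 ± 0.13 (SE) with an interval from -0.56 to 0.093. Quantile normalization turned both signs, to 0.055 and 0.076. Related gene copies can add to the signal of Eef1a1. Of the exchange factor of eEF1A, Eef1d stayed between 910 and 1515, and Eef1b2 read 340 and 275 in resting and between 187 and 274 in the germinal centre arrays, 1.37-fold lower without passing (adjusted p = 0.15). Eef1akmt1, a methyltransferase of eEF1A, ran from 104 to 192. Eef1g and Eef2k, the kinase that inhibits eEF2, were under the floor on every array. Eif5a, which helps ribosomes through runs of proline, read 594 on TD day 10 replicate 2 and 202 on resting replicate 1, and was below 0 on the other 6 arrays, so its level is not described further. Of the 7 tested elongation genes 6 had a negative difference and 1, Eef1a2, a positive one, beside a median of 0.0041 over all tested probe sets. None of the 6 passed, and for Eef1a1, Eef2 and Eif5a the sign turned in other settings.

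At termination, the release factor gene Etf1 was above resting in all germinal centre arrays at each of its 4 tested probe sets, by amounts that differed between them. The probe set that stands for the gene, 96754_s_at, read 484 and 450 in resting, 578 and 671 in TD day 4, 706 and 773 in TD day 10, and 598 and 540 in TI day 4, a rise of 1.37-fold that did not pass (adjusted p = 0.082). At 160451_at the signal was 0 and 67 in resting, 272 and 327 in TD day 4, 520 and 328 in TD day 10, and 146 and 121 in TI day 4. This was a rise of at least 3.13-fold (limma adjusted p = 0.0052), and in TD day 10 of at least 5.10-fold (adjusted p = 0.0044). Both resting arrays were under the floor and all 6 germinal centre arrays above it, so this probe set passed the filter only where it was high. It had to differ from resting, and its calls against resting are given as values only. The size of the average bound follows the floor, as the log2 difference of 1.65 was 2.37 with the floor at the 40th percentile and 0.87 at the 60th. At 96755_at it was 184 and 165, 377 and 454, 523 and 405, and 277 and 249 in the same order of groups, a rise of 2.11-fold (adjusted p = 0.0095, and 0.056 without resting replicate 2). At 98608_at it was 407 and 315, 566 and 568, 616 and 618, and 525 and 570, a rise of 1.61-fold (adjusted p = 0.029) that passed without resting replicate 1 alone of the 8 arrays (adjusted p between 0.031 and 0.11). The 4 probe sets thus gave 1 direction, and 3 of the 4 passed, of which 160451_at had to differ.

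The groups differed within these probe sets as well. At 160451_at TI was 3.11-fold below TD day 10 (adjusted p = 0.035), a call kept without either resting array and lost without any other (adjusted p between 0.058 and 0.19). Its log2 difference between TI and TD day 4, -1.17 ± 0.26 (SE), did not pass (adjusted p = 0.10), and at 98608_at the difference between TI and TD day 10 was -0.17 ± 0.18 (SE, adjusted p = 0.67). With the Gapdh ratio as a covariate the first difference was -1.49 (adjusted p = 0.31), and over all alternatives it lay between -1.97 and -1.21. Gspt1, the GTPase partner of eRF1, stayed between 268 and 390 with overlapping groups, and Eif6, which keeps the large subunit from joining too early, between 500 and 766.

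**Figure D4:**
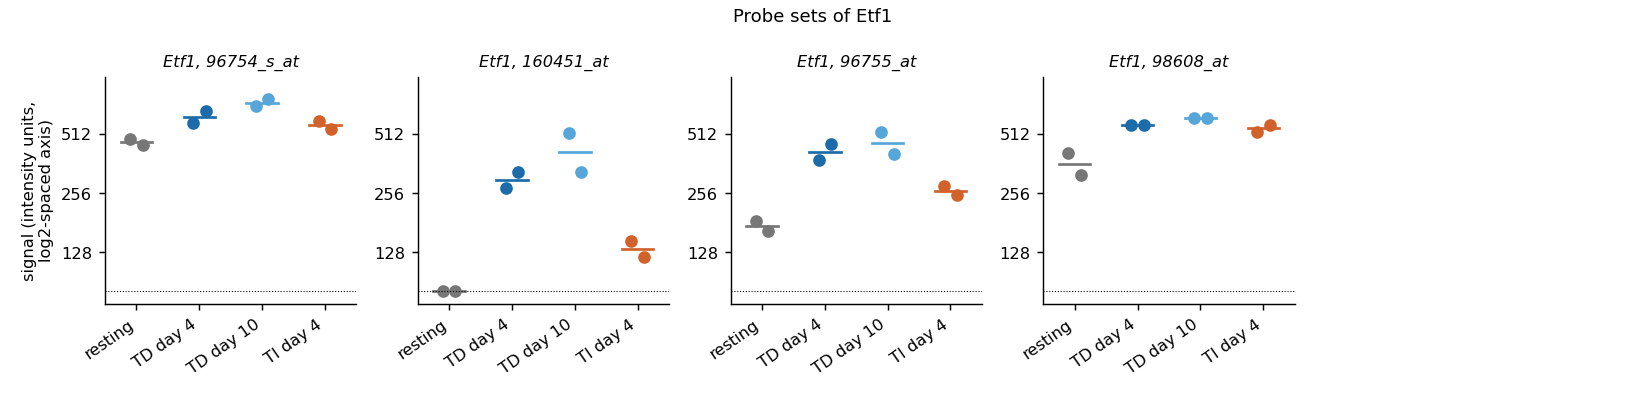
Signal (intensity units, log2-spaced axis) of the 4 tested probe sets of Etf1, with 1 point per array, bars at the mean of the log2 values of 2 arrays and the floor of 81 as a dotted line. Germinal centre arrays are above resting in each panel, and the TI arrays read 146 and 121 at 160451_at beside 520 and 328 in TD day 10.

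Promoter sequences are shown for the 5 called genes, with Eif3a included though its calls are values only, and for Eef1a1 as the relative of Eef1a2 that had no call. They are the 100 bases before the first start site that RefSeq lists (GRCm38.p6), written 5′ to 3′ on the gene's strand. Every CG dinucleotide is in capitals, since among the genes shown Eef1a2 holds the fewest.
Eef1a2, chr2:181157016-181157115, minus strand: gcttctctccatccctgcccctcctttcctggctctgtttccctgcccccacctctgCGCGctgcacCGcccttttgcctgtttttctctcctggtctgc
Eef1a1, chr9:78481725-78481824, minus strand: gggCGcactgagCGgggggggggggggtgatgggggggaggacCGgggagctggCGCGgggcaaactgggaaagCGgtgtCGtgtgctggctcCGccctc
Eif1ax, chrX:159372078-159372177, plus strand: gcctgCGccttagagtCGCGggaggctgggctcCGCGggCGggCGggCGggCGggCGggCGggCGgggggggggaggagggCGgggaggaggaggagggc
Eif2ak3, chr6:70844415-70844514, plus strand: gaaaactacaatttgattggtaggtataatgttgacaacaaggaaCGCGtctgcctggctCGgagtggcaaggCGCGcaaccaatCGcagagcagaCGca
Eif3a, chr19:60790694-60790793, minus strand: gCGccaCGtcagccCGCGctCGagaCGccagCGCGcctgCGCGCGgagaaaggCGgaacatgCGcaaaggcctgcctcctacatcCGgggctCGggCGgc
Eif4e2, chr1:87213811-87213910, plus strand: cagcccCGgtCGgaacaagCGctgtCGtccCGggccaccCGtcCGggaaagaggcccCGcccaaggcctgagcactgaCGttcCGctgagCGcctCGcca
The 100 bases hold 3 CG in Eef1a2, 8 in Eef1a1, 13 in Eif1ax, 7 in Eif2ak3, 16 in Eif3a and 12 in Eif4e2. Over the window of 300 bases, from 250 before to 50 after the start, Eef1a2 has 8 CG and Eef1a1 22, beside a median of 23.5 over the 42 translation factor genes with an entry and of 13 over 17492 coding genes. Eef1a2 thus lies below the median of coding genes, of which 38.3% have fewer CG, and Eif1ax, at 31, well above it. Among genes without a call, Eif2b5 has 9 CG in this window, Eif4e and Eif5a 11 each, and Eif3f 12. The E-box CACGTG, the letters that MYC and related factors bind, reads the same on both strands and contains 1 CG. It occurs in the window of at least 1 listed start of 10 of the 42 genes, or 23.8%, and of 8.91% of coding genes. Of the 5 called genes 1 holds it, Eif3a, 22 bases after the start. The calls of Eif3a had to occur and are values only, and none of the other called genes holds the E-box. Eef2 holds it at position -43 and Eif4a1 at -189 relative to the start. These are matches of letters and not measured binding, and Myc itself read 146 and 145 in resting and between 45 and 132 in the germinal centre arrays (log2 difference at most -0.72 ± 0.20, SE, adjusted p = 0.067).

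Each germinal centre group was also compared with resting alone. In TD day 4, 3 of 45 genes were higher (5.83% of all tested probe sets) and 0 lower (3.58%). In TD day 10, 4 were higher (6.45%) and 0 lower (4.44%). Both counts include Eif3a and are 2 and 3 without it. In TI day 4, 2 were higher (5.42%) and 0 lower (3.98%), and 6 of 45 had an unadjusted p under 0.05, or 13.3%, beside 22.9% of all tested probe sets. The median log2 difference of the 45 genes was 0.12 in TD day 4 (all tested probe sets -0.023), 0.25 in TD day 10 (0.045) and -0.041 in TI day 4 (-0.025). The 3 comparisons share the 2 resting arrays, so the calls in them are not independent. Eif1ax and Eif2ak3 were called in all 3, Eif3a in both TD groups and Eef1a2 in TD day 10.

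Between the germinal centre groups few differences passed. Between TI and TD day 4, both sorted on day 4, 0 of 45 genes passed, beside 1.45% of all tested probe sets. At an unadjusted p under 0.05 there were 6, or 13.3%, beside 14.4% of all tested probe sets. The smallest p values were those of Eif3a, Eif2d and Eif2ak1, given above. Between TD day 10 and TD day 4, 0 of 45 passed, beside 0 of 7253 probe sets (0%), with 3 of 45 and 373 of 7253 at an unadjusted p under 0.05. The smallest p values were those of Eef1a2, given above, and of a pair of eIF2B genes with differences of opposite sign. Eif2b4 read 82 and 151 in resting, 195 and 288 in TD day 4, 127 and 100 in TD day 10, and 149 and 182 in TI day 4, with a log2 difference of -1.07 ± 0.35 (SE, adjusted p = 0.85) between the TD groups. Eif2b2 read 306 and 287 in resting, 264 and 139 in TD day 4, 342 and 363 in TD day 10, and 222 and 205 in TI day 4, with a difference of 0.88 ± 0.30 (SE, adjusted p = 0.85). Between TI day 4 and TD day 10, 1 of 45 was lower, Eef1a2 (1.2% of all tested probe sets), and 0 higher (1.2%).

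In a description chosen after the values were seen, both TI arrays lay below all 4 TD arrays for 11 of 45 genes (24.4%, with 18.6% of all tested probe sets) and above them for 4 (8.89%, with 13.7%). Below were Eif1a, Eif1ax, Eif2ak3, Eif2b1, Eif3a, Eif3c, Eif3e, Eif4a1, Eif4b, Eif4g2 and Eif6, and above were Eef2, Eif2ak1, Eif2d and Eif4e2. Of these, Eif3a and Eif2d passed the filter on low signal only through the arrays where they were high. None of them passed between TI and TD day 4. The TI arrays also had the higher 3' to 5' Gapdh ratios, 1.24 and 1.68 against between 0.836 and 0.981 in the TD arrays. With that ratio as a covariate, the log2 difference of Eif4b between TI and TD day 10 was -0.57 (limma adjusted p = 0.45), beside -1.52 without it. Between TI and TD day 4, Eif3a had -0.77, Eif2ak1 1.54 and Eif2d 0.76 with the covariate, beside -0.79, 1.61 and 0.95 without it. Sums of plasma cell and macrophage markers were also higher in the TI arrays. The part of any of these in the differences was not tested further.

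**Figure D5:**
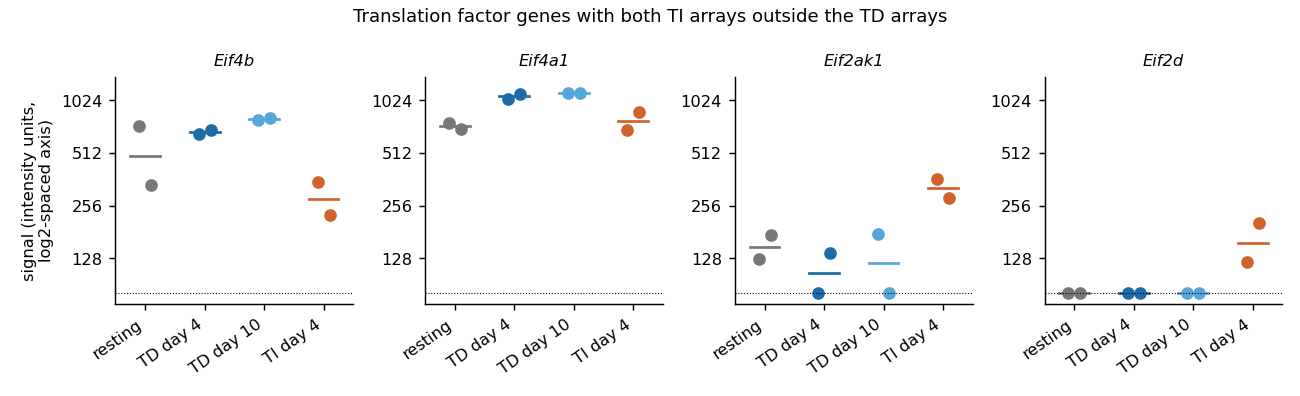
Signal (intensity units, log2-spaced axis) of Eif4b, Eif4a1, Eif2ak1 and Eif2d, genes for which both TI arrays lie outside the 4 TD arrays, with 1 point per array, bars at the mean of the log2 values of 2 arrays and the floor of 81 as a dotted line. TI day 4 is below the TD groups for Eif4b and Eif4a1 and above them for Eif2ak1 and Eif2d, and none passed between TI and TD day 4.

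The spread over the 4 groups was modest. The highest and lowest group means were within 1.5-fold for 24 of 45 genes, or 53.3%, and for 46.7% of all tested probe sets, with median signals of 322.8 and 247.6.

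Other genes of translation, from lists by function chosen with earlier results of these data known, are given by their counts. The counts are to be read against the 7.73% higher and 5.5% lower calls among all tested probe sets. Of 16 tested aminoacyl-tRNA synthetase and scaffold genes, which charge the tRNAs, 1 was higher in the germinal centre mean and 0 lower, with a median log2 difference of 0.26. The called gene was Gars, the glycyl-tRNA synthetase, at 255 and 280 in resting and between 366 and 434 in the germinal centre arrays (1.48-fold, adjusted p = 0.041). Aars and Qars, at 2.01-fold and 1.40-fold, did not pass (adjusted p = 0.054 and 0.059). Of 4 mitochondrial translation factors 0 passed in any of the 7 comparisons, with Tsfm, the mitochondrial exchange factor, at a log2 difference of 0.69 ± 0.22 (SE, adjusted p = 0.10).

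Of 20 tested genes that control translation outside the factors themselves, 1 was higher and 1 lower in the germinal centre mean, with a median of -0.11. Pabpc4, a poly(A)-binding protein, read 328 and 514 in resting and between 707 and 851 in the germinal centre arrays, a rise of 1.92-fold (adjusted p = 0.029). Pdcd4, which inhibits the eIF4A helicases, read 391 and 776 in resting, 157 and 253 in TD day 4, 88 and 46 in TD day 10, and 289 and 412 in TI day 4. It was lower by at least 3.06-fold on average (adjusted p = 0.025) and by at least 6.52-fold in TD day 10 (adjusted p = 0.011), and the TI arrays overlapped with resting. Mknk2, a kinase of eIF4E, read 2552 and 2445 in resting, 1925 and 1761 in TD day 4, 1496 and 1566 in TD day 10, and 2669 and 2462 in TI day 4, and was 1.63-fold lower in TD day 10 (adjusted p = 0.034). Its log2 difference between TI and TD day 4, 0.48 ± 0.15 (SE), did not pass (adjusted p = 0.22).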

How the data were processed

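Per the labels, RNA was extracted with RNAzol and labelled with biotin following Affymetrix's standard procedure. Deposited values are whole-number intensities on a linear scale, of which 30.1% are 0 or below. The software behind them is not given in the sources used here. The mean of each deposited array without its lowest and highest 2% of values was 200.2, so the values were read as scaled by array with background or mismatch signal subtracted, and were not normalized again. Array medians lay between 77 and 89. Precision is limited by the 2 arrays per group.

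The floor was the 50th percentile of all values, and probe sets above it on at least 2 arrays were tested, without 66 control probe sets. Where an array of the dimmer side was at the floor, the fold is a lower bound, given as at least. In the platform annotation 1 gene is given for 10855 probe sets, more than 1 for 396 and no gene for 1237. One linear model of the 4 groups on 8 arrays was fitted in limma 3.58.1 under R 4.3.3, with empirical Bayes variances (4 residual and 2.2 prior degrees of freedom) and Benjamini-Hochberg adjustment over all tested probe sets, two-sided, at 0.05. It was tested on simulated data.

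Named with full values are genes called in any of the 7 comparisons, the 3 smallest p where fewer than 3 passed, and genes standing for the main steps. The members and lists were chosen with earlier results of these data known. The sample titles give each replicate as a pool of mice and do not say that the pools are separate. Promoters come from RefSeq.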

Additional observations from a re-analysis of the deposited data

Results flagged for a closer look

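Among the translation factor genes 2 results differed between germinal centre groups in their distance from the same resting arrays, by the test of the difference itself. Eef1a2 had a log2 difference of -1.20 between TI day 4 and TD day 10 (limma adjusted p = 0.033), and of -1.22 with the Gapdh ratio as a covariate (limma adjusted p = 0.25). Etf1 had a log2 difference of -1.64 at the probe set 160451_at in the same comparison (limma adjusted p = 0.035), with the same sign and no call at its other 3 tested probe sets. With the Gapdh ratio as a covariate it was -1.49 (limma adjusted p = 0.31). The calls of both genes were also lost with no filter, the floor at the 40th percentile or a replicate block. Groups of 2 arrays are too small to look for a single array that stands apart.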

How the results depend on the processing

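The number of translation factor genes that passed was small and moved with the settings. In the germinal centre mean against resting it was 4, 5 with the floor at the 60th percentile, 4 with only the arrays compared or the mean of probe sets, 2 with a replicate block or array weights, and 3 in the other 8 settings. In TD day 4 it was 3, and 1 with no filter and 0 with only the arrays compared. Of the 3, Eif3a also lost its call with the floor at the 60th percentile, a replicate block or array weights. The same held with the trended and robust prior or the Gapdh ratio. In TD day 10 it was 4, and 1 with only the arrays compared. Of the 4, Eif3a also lost its call with the floor at the 60th percentile, a replicate block, array weights or the Gapdh ratio. Eif2ak3 lost its TD day 10 call with no filter. In TI day 4 it was 2, and 4 with the floor at the 60th percentile. There it was 1 with the floor at the 40th percentile, a pseudocount, a filter of 4 arrays, the trended and robust prior, array weights or the Gapdh ratio as a covariate, and 0 with a replicate block or only the arrays compared. Between TI and TD day 4 it was 0, and 2 with the floor at the 40th percentile and 1 with the floor at the 60th percentile or a pseudocount. Between TI day 4 and TD day 10 it was 1, and 2 with the floor at the 40th percentile, a pseudocount or array weights. There it was 0 with a common median, no filter, a replicate block, only the arrays compared or the Gapdh ratio. Leaving out 1 array at a time gave 2 to 4 in the germinal centre mean, 0 to 2 in TD day 4, 1 to 3 in TD day 10, 0 to 1 in TI day 4, 0 in both day 4 groups against each other, 0 between the TD groups, and 0 to 2 between TI day 4 and TD day 10. Fits with an array left out hold fewer samples, as do fits of only the arrays compared when 2 groups are compared. In the germinal centre mean the latter setting keeps all 8 arrays and repeats the main fit. For the other settings the cause was not tested. Eif1ax and Eif2ak3 passed in the germinal centre mean in all 21 alternatives.

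Signs turned only for genes without a call on all 8 arrays. Eif2ak2 turned to -0.035 with quantile normalization, -0.014 with a common median, and ran from -0.10 to 0.16 without 1 array, below 0 without resting replicate 2, TD day 4 replicate 1 or TI day 4 replicate 2. Eif5a turned to 0.093 with the floor at the 60th percentile and ran from -0.82 to 0.30 without 1 array, above 0 without TD day 10 replicate 1. Eef1a1 turned to 0.055 with quantile normalization and ran from -0.26 to 0.0600 without 1 array, above 0 without resting replicate 1. Eef2 turned to 0.076 with quantile normalization, and Eif4ebp1 ran from -0.77 to 0.0420 without 1 array, above 0 without resting replicate 2. Differences between replicates 1 and 2 correlated between -0.217 and 0.121 across groups, so the numbers share no visible pairing.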

Other observations

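Probe sets of the same gene did not always give the same picture. Eif4ebp2, an inhibitor of eIF4E, stayed between 1391 and 1709 at the probe set that stands for it, while a second one ran from 515 to 1167, with TD day 4 replicate 1 at 515 and replicate 2 at 1167. Eif4e2 had a second probe set at 305 and 52 in resting, 101 and 59 in TD day 4, -216 and -98 in TD day 10, and 147 and 416 in TI day 4. The mean of the 2 tested probe sets of Eif4e2 gave a log2 difference of 0.069 between the germinal centre mean and resting (adjusted p = 0.92).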
